A study of Mus musculus with 8 samples.

Results

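The 39 genes described here encode parts of the lysosome and of the autophagy machinery, and were listed by name for what their proteins do. They were found by symbol among the 54418 Ensembl genes of the deposited count table, and all 39 were among the 16011 genes with enough counts to be tested. By role they fall into 8 membrane proteins, channels and lipid transporters, 7 proteases, 9 genes of glycosidases, a lipase and activators, 5 subunits of the proton pump, and 10 genes of autophagy. The RNA came from mouse melanocyte stem cells, which sit in the hair follicle and supply pigment cells for each new hair, and was compared between 4 control and 4 Bmi1-deleted libraries. Bmi1 is a subunit of a Polycomb complex that keeps genes silent. Control libraries carried Bmi1fl/fl, Dct-rtTA and TRE-H2B-GFP, and Bmi1-deleted libraries carried these same alleles together with Tyrosinase-Cre. Both groups thus had floxed Bmi1 and the GFP reporter, which depends on doxycycline and is driven by the promoter of Dct, an enzyme gene of the melanin pathway, while the Cre, driven by the promoter of the pigment gene Tyr, was present in the deleted group alone. All mice were of a mixed C57Bl-6;129Sv background and ate doxycycline pellets. Cells were sorted from dorsal skin at postnatal day 21 as GFP-positive, live and not autofluorescent. No label ties the 4 libraries of a group to separate animals, and the p-values therefore speak only for the spread of these 8 libraries, which may be technical.

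The lysosome is the acidic compartment in which proteases, glycosidases and lipases break down material delivered by endocytosis or by autophagosomes. A proton pump in its membrane, the V-ATPase, keeps it acidic, and autophagosomes form around cytoplasm with the help of ubiquitin-like proteins of the LC3 and GABARAP families. In pigment cells the melanosome is a related organelle that shares pump subunits, sorting routes and some membrane proteins with the lysosome. Mitf, the master regulator of the melanocyte lineage, belongs to the same small family of transcription factors as Tfeb and Tfe3, which are known for switching on lysosomal genes.

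The members differed little between the genotypes. None of the 39 passed at an adjusted p under 0.05 in edgeR's quasi-likelihood test (p adjusted over all tested genes), where 15 of 16011 genes, or 0.0937%, did. The smallest adjusted p of a member was 0.305, for Map1lc3a. At an unadjusted p under 0.05 there were 3 members, Map1lc3a, Atg7 and Atp6v0a1, against 8.27% of all tested genes, and DESeq2 called 0 members. The libraries of the groups did not overlap for 1 member, Map1lc3a, against 5.18% of tested genes. When the replicate number in the labels was added as a block, which compares control 1 with Bmi1-deleted 1 and so on, 1 member fell, the channel gene Mcoln3, and 0 rose, against 2.41% of tested genes called in that fit. Differently numbered libraries were as alike within 1 and 2, and within 3 and 4, so the data do not show that a number marks a closer tie than this split.

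The log2 changes of the members, Bmi1-deleted against control, ran from −0.52 to 0.67, with a median of −0.09 against 0.01 over all tested genes. Of the members 28 had a fitted change below 0 and 11 above, so 71.8% lay below 0 against 49.3% of tested genes. This lean was not even over libraries of the same number. The members' median log2 ratio was −0.14, −0.01, −0.1 and 0.01 in pairs 1 to 4 (0.5 CPM added to each level). These members were measured more precisely than most genes, with a median standard error of 0.15 (range 0.11 to 0.43) on the log2 scale against 0.29 over all tested genes. For 35 of the 39 the 95% interval of the change, each taken alone, stayed inside a 2-fold change in either direction, and for 26 it stayed inside 1.5-fold. The 4 genes whose interval reached past 2-fold were Mcoln3, Cln3, Ctsh and Map1lc3a. Each member had at least 27 counts in every library, and 36 of them had at least 100.

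**Figure D1:**
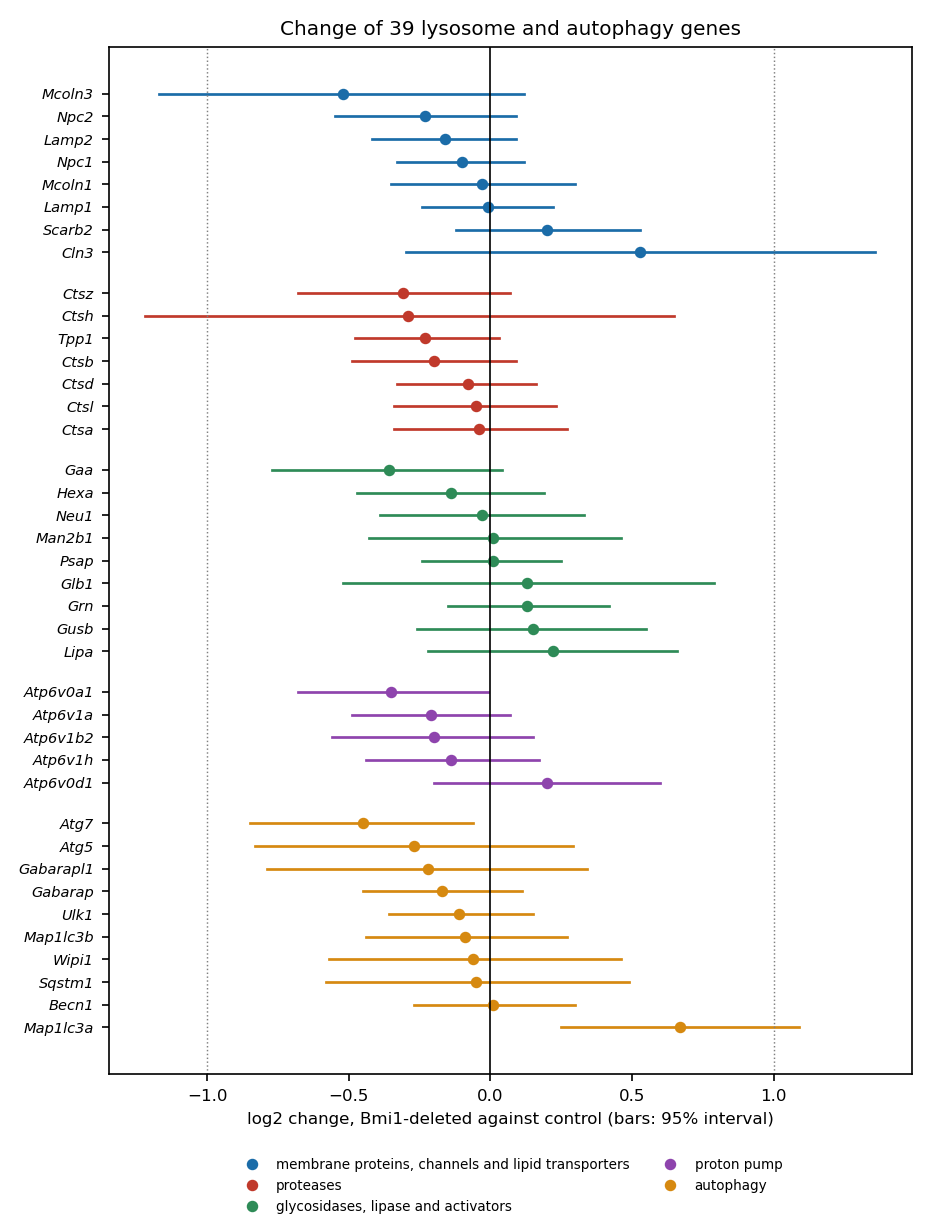
Fitted log2 change of each of the 39 members, Bmi1-deleted against control, on the horizontal axis, grouped and coloured by role, with bars for the 95% interval and dotted lines at a 2-fold change. Most points lie near 0, with Mcoln3 at −0.52 and Map1lc3a at 0.67 at the ends.

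Levels are given as CPM (counts per 1000000 in a library, scaled with TMM factors), with the SD over 4 libraries, unless TPM are named. Per length, in TPM rescaled without the single most abundant row of the table, the cargo receptor gene Sqstm1 was the highest member at a mean of 569 over the 8 libraries, followed by Mcoln3 at 341, the membrane glycoprotein gene Lamp1 at 275, the protease gene Ctsl at 260 and the activator precursor gene Psap at 257. In control libraries Sqstm1 had a rescaled TPM of 589 ± 190 and Mcoln3 of 411 ± 80.6, and in Bmi1-deleted libraries they had 549 ± 187 and 271 ± 110. The ranges of mean ± SD of these genes overlapped in both groups, narrowly in the deleted one. The next 3 lay within 1 SD of each other. The lowest members per length were Cln3 at 13.7, Ctsh at 11.1 and Glb1 at 7.61. The members together took 0.384% to 0.487% of the counts of a library.

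**Figure D2:**
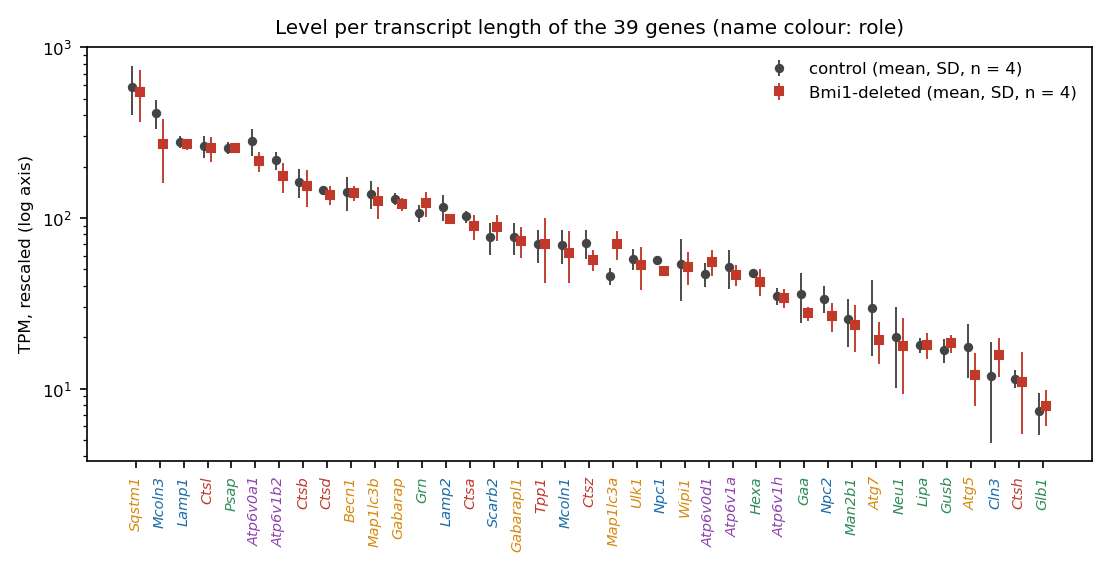
Rescaled TPM of each member on a logarithmic axis, with grey circles for the control mean, red squares for the Bmi1-deleted mean and bars for the SD (n = 4). Genes run from the highest mean at the left (Sqstm1) to the lowest at the right (Glb1), and their names are coloured by role.

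Among the membrane proteins, Mcoln3 (ENSMUSG00000036853, GRCm38 chromosome 3, 146117450 to 146141806) encodes TRPML3, a cation channel of endosomes and lysosomes known from varitint-waddler mice, whose mutant channel affects coat colour and hearing. Its level was 345, 351, 481 and 581 CPM in control libraries 1 to 4 and 211, 197, 369 and 447 in Bmi1-deleted libraries 1 to 4. Each Bmi1-deleted library was lower than the control library of its number, but Bmi1-deleted 3 and 4 were above control 1 and 2, so the groups overlapped. The means were 439.5 ± 113 and 306 ± 122 CPM, a log2 change of −0.52 (SE 0.29) that did not pass (edgeR adjusted p = 0.717). With the replicate block the change was −0.57 (SE 0.10) and passed (edgeR adjusted p = 0.00603). The log2 ratios within the 4 numbered pairs were −0.71, −0.84, −0.38 and −0.38. The blocked call held with pair 1, 3 or 4 left out and not without pair 2 (adjusted p = 0.0856). Replicates 1 and 2 alone gave −0.77 (edgeR adjusted p = 0.0136), and replicates 3 and 4 alone gave −0.40 (edgeR adjusted p = 0.463).

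A sum of melanocyte markers moved with the same libraries. The summed level of 13 melanocyte markers was 9683, 10810, 13572 and 15823 CPM in control libraries 1 to 4 and 5896, 5518, 9511 and 11216 in Bmi1-deleted libraries 1 to 4. Within each group the libraries stood in the same order for Mcoln3 as for this sum. Dct and Tyrp1, at control means of 4997 and 2318 CPM, were the highest of this list in both groups and made up most of the sum. Not every marker followed this order, Sox10 and Ednrb being among those that did not. Of the 13 markers 12 had a change below 0 (median −0.68), Sox10 had 0.16, and 9 fell with the replicate block. The sums overlapped between groups (exact two-sided permutation p = 0.114, unpaired). This sum was lower in the Bmi1-deleted library of all 4 numbered pairs, and so was the sum of the 39 members. A sum weighs genes by their level. Counted by gene, 28, 20, 24 and 19 of the 39 members were lower in pairs 1 to 4. Summed levels of 14 fibroblast markers ran from 4698 to 8016 CPM in control and from 7879.9 to 17287 in Bmi1-deleted libraries (exact two-sided permutation p = 0.0571), and 5 of the 13 tested rose with the block. The collagen genes Col1a1, Col1a2 and Col3a1 were the highest of this list in both groups and made up most of the sum. Of the 13 tested, 12 had a change above 0, and Fbln1 had −0.74. Dcn, Lum and Pdgfra, at far lower levels, were higher in pairs 1 to 3 and lower in pair 4 (log2 ratios −1.72, −3.59 and −1.43). The sum of 8 Schwann cell markers averaged 3334 ± 827 CPM over control and 5020.4 ± 619 over Bmi1-deleted libraries (exact two-sided permutation p = 0.0571), and 6 of the 8 rose with the block. The 14 markers of macrophages and other immune cells together came to 44.2 to 75.2 CPM in the control and 72.9 to 120.8 in the Bmi1-deleted libraries (exact two-sided permutation p = 0.0857). Only 8 of the 14 had enough counts to be tested, and Cd74, Cd68 and Lyz2 made up most of this sum. The 10 keratinocyte markers summed to 1062, 1160, 1296 and 1198 CPM in control libraries 1 to 4. In Bmi1-deleted libraries 1 to 4 they summed to 1950, 1684, 766 and 931 (exact two-sided permutation p = 0.629). The sum of 7 endothelial markers averaged 33.8 ± 10.8 CPM over control and 58.0 ± 33.4 over Bmi1-deleted libraries (exact two-sided permutation p = 0.229). None of these markers was at 0 in all libraries. The part of other cell types in the members' values was not tested. In bulk RNA, fewer cells of a type and less RNA per cell cannot be told apart. Bmi1 itself had means of 83.4 ± 10.0 CPM (control) and 69.6 ± 0.880 CPM (Bmi1-deleted), with separate groups (two-sided exact permutation p = 0.0286, the lowest the design allows), and did not pass across all genes (edgeR adjusted p = 0.607). In rescaled TPM it had 157 ± 24.4 (control) and 79.9 ± 25.2 (Bmi1-deleted), a larger difference than in CPM, the cause of which was not tested.

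**Figure D3:**
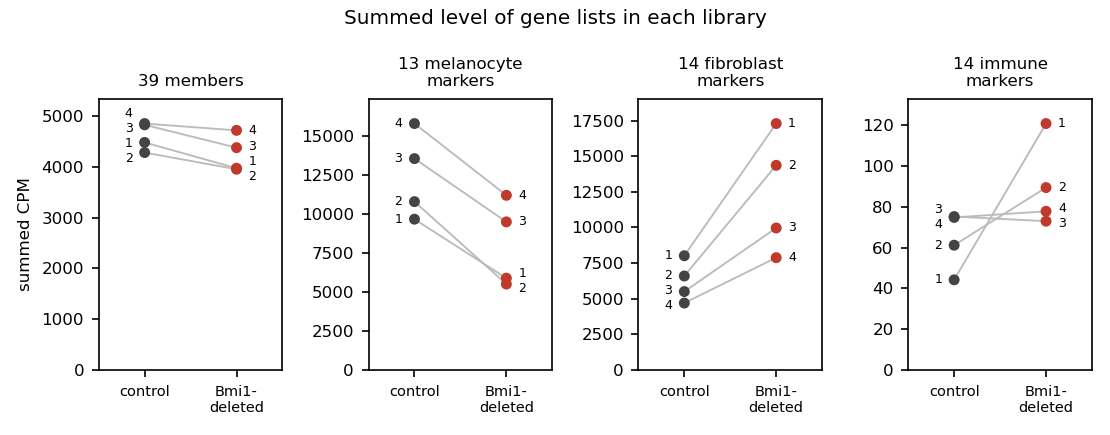
Summed CPM of the 39 members, 13 melanocyte, 14 fibroblast and 14 immune markers in each library, with replicate numbers beside the points and lines joining libraries of the same number. The members' sums lie between 3953 and 4853 CPM and overlap between groups, and each panel has its own vertical scale from 0.

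The other 7 membrane genes did not pass with or without the block. Lamp1 and Lamp2 encode the main glycoproteins that line the lysosomal membrane. Lamp1 had means of 350.2 ± 16.9 CPM (control) and 348 ± 23.3 CPM (Bmi1-deleted) (log2 change −0.01, SE 0.11). Lamp2 stood at 169 ± 21.7 and 151 ± 6.16 CPM (−0.16, SE 0.12). Scarb2, the receptor that carries glucocerebrosidase to the lysosome, stood at 213 ± 37.0 and 245 ± 38.8 CPM (0.20, SE 0.15). The cholesterol transporters Npc1 and Npc2 had changes of −0.10 and −0.23, and Mcoln1, a channel related to Mcoln3 that releases lysosomal calcium, of −0.03 (SE 0.15). Cln3, a gene mutated in juvenile Batten disease, was the lowest of the group at 4.52 ± 1.4 and 6.53 ± 1.33 CPM, with a change of 0.53 (SE 0.39) that this depth left imprecise.

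All 7 protease genes had a fitted change below 0, from −0.31 to −0.04 with a median of −0.20, and none passed in either fit. Each was below 0 as well with RLE size factors, DESeq2 and both kinds of TPM, all of which use the same 8 libraries. On the deposited log2 TPM, 37 of the 39 members were below 0 and the median of all tested genes was −0.14. Without control 3 or without Bmi1-deleted 1, 6 of 7 proteases were below 0. With replicates 1 and 2 alone and with 3 and 4 alone, 5 of 7 were. Tpp1, a tripeptidyl peptidase, had the smallest p of them and stood at 99.0, 83.4, 94.3 and 94.7 CPM in control libraries and 72.9, 85.9, 75.0 and 83.6 in Bmi1-deleted libraries. Bmi1-deleted 2 and 4 were above the lowest control library, control 2, so the groups overlapped. The change was −0.23 (SE 0.12, edgeR adjusted p = 0.661). Ctsl, the cysteine protease cathepsin L, was the highest protease per length. It stood at 112, 118, 143 and 104 CPM in control libraries and 104, 104, 124 and 129 in Bmi1-deleted libraries, which covered much the same range (change −0.05, SE 0.13, edgeR adjusted p = 0.971). The main aspartic protease gene Ctsd (−0.08), Ctsb (−0.20), Ctsz (−0.31) and Ctsa (−0.04), which also protects other hydrolases, had standard errors from 0.11 to 0.18. Ctsh, at 9.09 ± 3.41 and 7.44 ± 3.92 CPM, had −0.29 with the largest standard error of the members, 0.43. The lean below 0 was not seen in 7 other lysosomal proteases outside the 39, of which 3 had a change below 0 and 4 above (median 0.11).

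The glycosidases, the lipase gene and the activators had a median change of 0.01, with 3 of 9 below 0, and none passed in either fit. Gaa, which breaks down lysosomal glycogen, stood at 60.4, 44.0, 76.0 and 69.2 CPM in control libraries and 45.7, 39.2, 47.5 and 61.5 in Bmi1-deleted libraries. It was lower in all 4 numbered pairs, but control 2 lay below 3 of the Bmi1-deleted libraries. The change was −0.36 (SE 0.19, edgeR adjusted p = 0.655, and 0.285 with the block). Psap encodes the precursor of saposins, which help enzymes reach their lipid substrates. Its level was 407, 337, 431 and 409.9 CPM in the control and 393, 370.3, 414 and 415 in the Bmi1-deleted libraries. The groups lay on top of each other (change 0.01, SE 0.12, 95% interval −0.24 to 0.25, edgeR adjusted p = 0.993). The others, Hexa, Neu1, Man2b1, Glb1, Gusb, the acid lipase gene Lipa and the progranulin gene Grn, had changes from −0.14 to 0.22.

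Of the 5 proton pump subunits 4 had a change below 0 (median −0.20) and none passed over the 8 libraries. Atp6v0a1 encodes a membrane subunit of the V-ATPase and had both the smallest p and the highest level per length of the 5. It stood at 300.4, 311, 279 and 300.0 CPM in control libraries and 184, 190.0, 259 and 304 in Bmi1-deleted libraries. Bmi1-deleted 1 and 2 were well below every control library, Bmi1-deleted 3 slightly below, and Bmi1-deleted 4 was within the control range. The means were 298 ± 13.4 and 234 ± 57.4 CPM, a change of −0.35 (SE 0.15, edgeR adjusted p = 0.582, and 0.194 with the block). Replicates 1 and 2 alone gave −0.71, which passed (edgeR adjusted p = 0.0205), while 3 and 4 alone gave −0.06. Atp6v1b2, a subunit of the part that binds ATP, had log2 ratios of −0.50, −0.43, −0.24 and 0.22 in pairs 1 to 4, with Bmi1-deleted 4 again above its control. Atp6v1a, Atp6v1h and Atp6v0d1 had changes of −0.21, −0.14 and 0.20.

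The 10 autophagy genes had a median change of −0.10, with 8 below 0. Map1lc3a, which encodes an LC3 protein that is attached to the autophagosome membrane, had 23.0, 26.6, 19.0 and 27.6 CPM in control libraries and 39.8, 47.8, 35.8 and 29.4 in Bmi1-deleted libraries. All Bmi1-deleted libraries were above all control libraries, by a narrow margin for Bmi1-deleted 4. The means were 24.0 ± 3.88 and 38.2 ± 7.71 CPM, a change of 0.67 (SE 0.19) that did not pass (edgeR adjusted p = 0.305, and 0.0829 with the block). In the 4 pairs the ratios were 0.79, 0.85, 0.91 and 0.09, and with pair 4 left out of the blocked fit the gene passed. Its close relative Map1lc3b, which was higher in CPM at 133 ± 17.4 and 126 ± 29.6, had a change of −0.09 (SE 0.16).

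Sqstm1 encodes p62, which carries ubiquitin-tagged cargo into autophagosomes and is itself degraded there. Its level was 309.6, 262, 489.5 and 464 CPM in control libraries and 288, 284, 394 and 509 in Bmi1-deleted libraries. Replicates 3 and 4 were high and 1 and 2 low in both genotypes, and the genotypes overlapped throughout (change −0.05, SE 0.24, edgeR adjusted p = 0.985). Atg7, the enzyme that activates the ubiquitin-like proteins of autophagy, is named because of its unadjusted p. It stood at 42.4, 38.9, 40.2 and 27.0 CPM in the control and 24.5, 28.2, 24.7 and 31.2 in the Bmi1-deleted libraries. Control 4 lay among the Bmi1-deleted libraries while the other 3 control libraries were above them all (change −0.45, SE 0.18, edgeR adjusted p = 0.535). The kinase gene Ulk1, Becn1 of the lipid kinase complex, Atg5, Wipi1, Gabarap and Gabarapl1 had changes from −0.27 to 0.01.

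**Figure D4:**
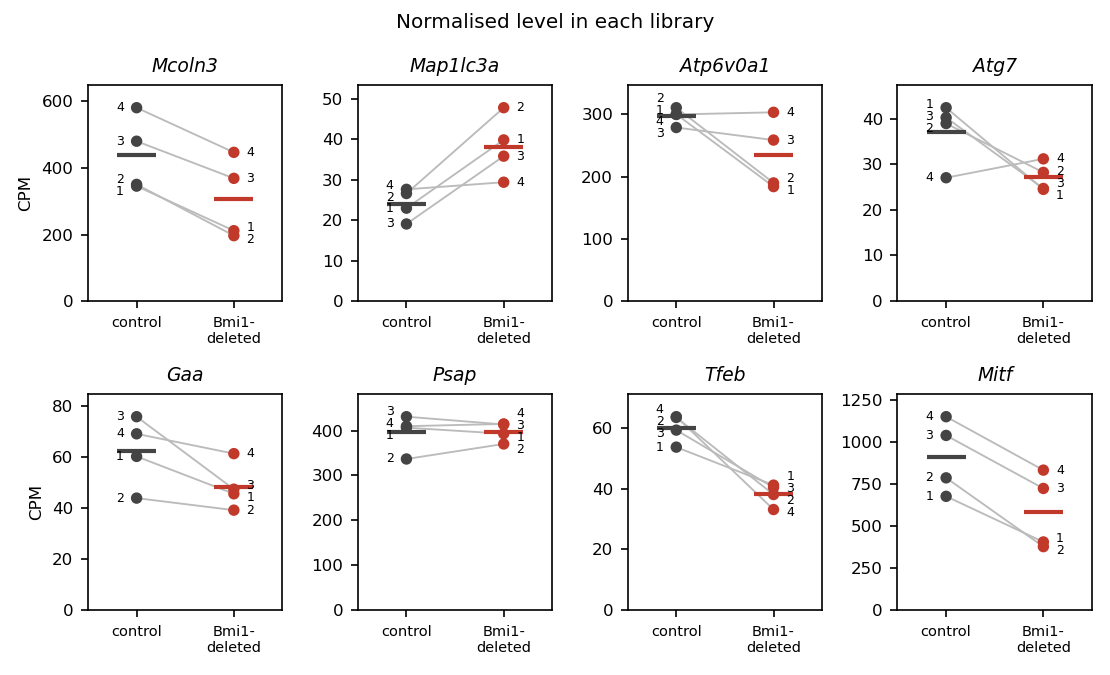
CPM in each library for 6 members, Mcoln3, Map1lc3a, Atp6v0a1, Atg7, Gaa and Psap, and for the regulators Tfeb and Mitf, with replicate numbers beside the points, lines joining libraries of the same number, and a bar at each group mean. The groups do not overlap for Map1lc3a and Tfeb, and every line runs down for Mcoln3, Gaa, Tfeb and Mitf.

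Beyond the 39 members, 130 other genes of the lysosome, autophagy and their control were examined, of which 129 were tested. In edgeR's test 0 passed, 8 had an unadjusted p under 0.05, and 7 had groups that did not overlap, against 8.27% and 5.18% of all tested genes. Their median change was −0.04, with 70 of 129 below 0. DESeq2 called 1 of them, the regulator gene Tfeb. With the replicate block 0 rose and 2 fell, Tfeb and Mitf, against 2.41% of all tested genes called. By role the medians were 0.11 for 7 proteases, −0.06 for 24 hydrolases and activators, −0.05 for 23 membrane and sorting genes, −0.05 for 13 pump genes, −0.01 for 42 autophagy genes and −0.08 for 20 regulators.

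**Figure D5:**
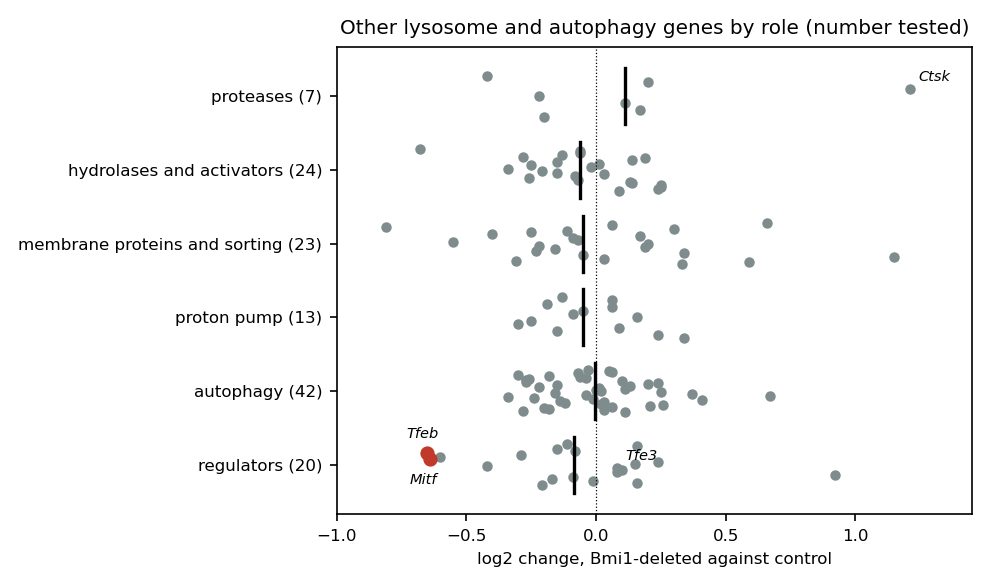
Fitted log2 change, Bmi1-deleted against control, of the 129 tested genes beyond the members, by role on the vertical axis with the number tested, and a bar at each median. Tfeb and Mitf, in red, are the 2 that fell with the replicate block, and Tfe3 and the outlying Ctsk are labelled for comparison.

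Tfeb, the transcription factor best known for switching on lysosomal and autophagy genes, was the lysosomal regulator with the clearest separation. It had 53.7, 63.4, 59.3 and 63.7 CPM in control libraries and 41.1, 38.1, 40.4 and 33.1 in Bmi1-deleted libraries. The groups did not overlap, and the means were 60.0 ± 4.70 and 38.2 ± 3.62 CPM. The change of −0.65 (SE 0.14, 95% interval −0.95 to −0.36) did not pass without a block (edgeR adjusted p = 0.109) and passed with it (edgeR adjusted p = 0.0243). DESeq2 gave an adjusted p of 0.00709. When the blocked fit was repeated on 3 pairs at a time, Tfeb passed only without pair 1 (highest edgeR adjusted p of the others 0.186).

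Mitf had 675, 785, 1037 and 1148 CPM in control libraries and 404, 376, 722 and 831 in Bmi1-deleted libraries. It was lower in all 4 pairs, and the groups overlapped (change −0.64, SE 0.28, edgeR adjusted p = 0.585). With the block the change was −0.70 and passed (edgeR adjusted p = 0.00242), as it did with each pair left out. Mitf is itself one of the 13 melanocyte markers summed above. Tfe3 had 52.7, 45.9, 47.8 and 42.9 CPM in control libraries and 59.2, 46.2, 40.4 and 54.3 in Bmi1-deleted libraries, which overlapped on both sides (change 0.08, SE 0.15, edgeR adjusted p = 0.953).

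The start regions of the members were searched for the letters that factors of this family are known to bind. RefSeq windows from 250 bases before to 50 after an annotated start (GRCm38.p6) were found for 32 of the 39 members, and both strands were searched. The palindrome TCACGTGA, the core of the element described in lysosomal genes, was present for 6 of the 32 (18.8%), against 2.11% of 10653 tested genes with a window and 0.974% of 32851 windows. The shorter E-box CACGTG, which lies inside it, was present for 12 of 32 (37.5%), against 11.4% of those genes and 7.15% of windows. TCATGTG, a form common at pigment genes, was present for 4 of 32 (12.5%), against 2.78% and 3.77%. The 6 members with the palindrome are shown because they hold the sequence most tied to lysosomal genes, each as 30 bases in the direction of transcription, 5′ to 3′, with the palindrome in capitals.
Ctsa: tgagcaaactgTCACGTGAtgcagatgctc
Cln3: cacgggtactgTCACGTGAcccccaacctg
Ctsd: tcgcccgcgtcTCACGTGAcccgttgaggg
Mcoln1: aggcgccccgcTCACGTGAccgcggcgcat
Atp6v0d1: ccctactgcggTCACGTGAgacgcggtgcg
Atp6v1a: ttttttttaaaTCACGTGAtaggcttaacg

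The sites lie at chr2:164833749-164833778 on the + strand for Ctsa, chr7:126583340-126583369 on the − strand for Cln3, chr7:142387908-142387937 on the − strand for Ctsd, chr8:3500462-3500491 on the + strand for Mcoln1, chr8:105566050-105566079 on the − strand for Atp6v0d1 and chr16:44139373-44139402 on the − strand for Atp6v1a. The first base of the palindrome was 13, 122, 99, 46, 4 and 132 bases before the RefSeq start used, in the same order. For Ctsa and Cln3 that start lies inside the annotated gene. Each had another window over the annotated gene start, chr2:164832622-164832921 and chr7:126585768-126586067, that held none of the 3 sequences. Ctsa held a second copy, not in capitals above, that begins in the last bases printed. These 6 members had changes from −0.21 to 0.53 with a median of −0.04, and the matched members without the palindrome had a median of −0.10, so the sequence did not mark the members with the lowest changes. The window of Mcoln3, at chr3:146121541-146121840, held none of the 3 sequences, which says only that these letters are not in that window. It lies inside the gene, and the region at the gene start given above was not searched. Lamp1 held CACGTG 4 times, 3 of them in the 80 bases at chr8:13159063-13159142 on the + strand, ending 19 bases before the start, printed with each copy in capitals.
Lamp1: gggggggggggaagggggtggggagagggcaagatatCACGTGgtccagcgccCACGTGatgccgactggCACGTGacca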

How the data were processed

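One deposited table held estimated counts per gene as whole numbers. Salmon 1.2.1 and mm10 are the tool and build named, per the submitters' processing notes. The other held log2 values, which the authors deposited as log2(TPM + 1). Annotation, strand setting and rounding were not given in the sources used here. Libraries held 8882656 to 10368174 counts. No molecular identifiers are mentioned, so counts may include PCR copies. Symbols and positions came from GENCODE M21. Of the members 14 share exon bases with another gene, 12 of them with one on the opposite strand, and LC3 and GABARAP genes have similar copies, so reads there may be shared.

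Counts were filtered with filterByExpr (edgeR 4.0.16, R 4.3.3), scaled by TMM and compared with the robust quasi-likelihood F test, two-sided, with Benjamini-Hochberg adjustment over all 16011 tested genes. Alternatives used DESeq2 1.42.0, limma 3.58.1 on log2 TPM, other filters and size factors, left-out libraries, and the replicate number as a block. Residuals of same-numbered libraries correlated at 0.124 to 0.186 across genes, all above 0.1, so the numbers were treated as pairs. Differently numbered libraries within 1 and 2 and within 3 and 4 correlated as strongly (0.129 to 0.217), and no label states what a number marks. For levels between genes, TPM were rescaled without Gm23935, which took 73.7% to 85.6% of a library's TPM. Single sums were compared by exact permutation over 70 assignments, whose smallest p is 0.0286.

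Members and gene lists were chosen with earlier results of these data known. Values of every library are given for members that passed with or without the block, for the member of each role with the smallest p and that with the highest TPM, for genes of the wider list that passed, and for Tfeb, Tfe3 and Mitf; Atg7, Atp6v1b2 and Ctsk were named after their values were seen.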

Additional observations from a re-analysis of the deposited data

Results flagged for a closer look

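In 3 of 78 groups of 4 libraries (39 members in 2 genotypes), 1 library lay far from the other 3, where chance gives about 1 in 20 groups. Lamp2 had 201 CPM in control 2, against 154 to 162 in the other control libraries. Ctsd had 178 CPM in control 4, against 167 to 169 in the other control libraries. Hexa had 35.7 CPM in Bmi1-deleted 2, against 51.7 to 53.1 in the other Bmi1-deleted libraries.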

How the results depend on the processing

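The 15 genes called among all tested became 158 with DESeq2, 380 with no filter on low counts, 386 with the replicate block, 156 with replicates 1 and 2 alone, 4 on the deposited log2 TPM, and 2 on rescaled TPM with a pseudocount of 1 or of 0.1; leaving out 1 library gave 8 (without control 2) to 45 (without control 1). Of the 39 members 0 were called, 1 with the replicate block (Mcoln3) and 2 with replicates 1 and 2 alone (Mcoln3 and Atp6v0a1), and leaving out 1 library gave 0 each time. Of the wider list 0 were called, 1 with DESeq2 (Tfeb), 2 with no filter (Tfeb and Mcoln2), 2 with the block and 1 with replicates 1 and 2 alone (Mitf). The members' median of −0.09 became −0.31 on the deposited log2 TPM, where the median of all genes shifted to −0.14, and was −0.12 to −0.07 under the other settings, left-out libraries included. On TPM rescaled without Gm23935 (pseudocount 0.1) the median was −0.11 for the members and −0.01 for all genes. The causes of the differences between settings were not tested. Over 18 alternative settings 60 of 701 member values had the other sign, none of them called. Blocked fits with each pair left out were added after seeing the data. Cln3 was absent under a filter of 10 CPM in 4 libraries. Depth limits Cln3, Ctsh and Glb1, the members with the fewest counts.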

Other observations

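For 8 of the 39 members (20.5%, against 11% of tested genes) the libraries of replicates 1 and 2 did not overlap those of 3 and 4, whatever their genotype. Lower in replicates 1 and 2 were the channel genes Mcoln1 and Mcoln3, the mannosidase gene Man2b1, Psap, and the autophagy genes Sqstm1, Map1lc3b and Gabarapl1, while Wipi1 was higher. Sqstm1 averaged 286 CPM in replicates 1 and 2 and 464 in 3 and 4, Gabarapl1 41.0 and 66.0, and Wipi1 82.6 and 54.7. No label gives a batch, and what the numbers mark was not tested.

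In the wider list, 3 genes named after their values were seen had larger fitted changes than most and did not pass. Ctsk, a collagen-degrading cathepsin known from osteoclasts and fibroblasts, had means of 4.60 ± 1.53 CPM (control) and 10.6 ± 3.31 CPM (Bmi1-deleted), with no overlap (change 1.21, SE 0.37, edgeR adjusted p = 0.363). The same libraries had the fibroblast marker sums given above, whose part in this value was not tested. Slc36a1, a lysosomal amino acid transporter, had 16.1 ± 4.05 and 25.4 ± 2.66 CPM, also with no overlap (change 0.66, SE 0.22, edgeR adjusted p = 0.401). Mcoln2, the neighbour of Mcoln3 on chromosome 3, had 31.7 ± 12 and 18.1 ± 5.91 CPM, with overlap (change −0.81, SE 0.30, edgeR adjusted p = 0.485), and passed with no filter on low counts.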
